A study of Homo sapiens with 6 samples.

Results

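The genes of de novo purine synthesis, with PAICS among them, were examined in HuCCT1, an established human cholangiocarcinoma (bile duct cancer) cell line. The group holds 10 genes, chosen by name as the enzymes that lead from phosphoribosyl pyrophosphate (PRPP) to IMP and on to AMP and GMP, out of 58735 genes in the deposited count table, and all 10 passed the filter on low counts. The series compared 3 libraries of cells treated with an siRNA (small interfering RNA) directed at C1QBP (siC1QBP) with 3 libraries of cells given a control siRNA (siNC, whose cell type label is wt), and its title places PAICS in a loop with C1QBP, FAK and c-Myc. Both groups were siRNA-treated cells of this 1 line, and the sources used here do not give the siRNA sequence, its dose or the time of harvest. The labels do not say whether replicates came from separate cultures, so the spread behind each p-value is that between these libraries and may be technical. In bulk RNA, fewer cells that express a gene and less of its RNA per cell cannot be told apart.

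Purines are built atom by atom on a ribose phosphate. PPAT commits PRPP to the pathway, GART, PFAS, PAICS, ADSL and ATIC carry the ring to IMP, and IMP is then turned into AMP by ADSS and ADSL or into GMP by an IMP dehydrogenase (IMPDH1 or IMPDH2) and GMPS. GART, PAICS and ATIC are each single proteins with several activities, and proliferating cells are known to depend on the pathway. MYC is known as an activator of several of these genes.

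PAICS and PPAT are neighbours on chromosome 4 that are read away from each other: PPAT (hg38, 56393362 to 56435615, minus strand) ends 125 bases before PAICS (56435741 to 56464579, plus strand) begins. Their promoter windows, 250 bases before to 50 bases after the RefSeq start of each gene, therefore overlap by 236 bases. The 2 genes that passed the test are represented by their RefSeq windows (GRCh38.p14), PAICS at chr4:56435502-56435801 on the plus strand and IMPDH1 at chr7:128409933-128410232 on the minus strand. Capitals mark every CACGTG (the E-box read by MYC and related factors) and GGGCGG (the GC box), on either strand.
PAICS: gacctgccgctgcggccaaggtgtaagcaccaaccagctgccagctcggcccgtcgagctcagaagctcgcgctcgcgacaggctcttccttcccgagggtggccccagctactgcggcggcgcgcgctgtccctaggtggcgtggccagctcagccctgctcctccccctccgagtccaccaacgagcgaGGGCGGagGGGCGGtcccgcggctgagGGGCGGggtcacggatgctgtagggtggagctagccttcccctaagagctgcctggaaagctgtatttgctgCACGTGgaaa
IMPDH1: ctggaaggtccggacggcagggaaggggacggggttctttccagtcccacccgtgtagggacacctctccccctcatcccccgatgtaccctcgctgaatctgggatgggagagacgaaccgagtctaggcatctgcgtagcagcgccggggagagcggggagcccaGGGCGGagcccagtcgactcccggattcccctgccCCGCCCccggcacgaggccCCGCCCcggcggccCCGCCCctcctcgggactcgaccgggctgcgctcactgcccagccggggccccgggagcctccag

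In the PAICS window the PPAT start is base 114 and the PAICS start is base 251, and 3 GC boxes lie between the 2 starts. The single CACGTG begins at base 291, which is 40 bases downstream of the PAICS start and inside the transcribed part of PAICS. The same 6 bases lie in the PPAT window, with their far end 182 bases upstream of its start. Windows were found for 8 of the 10 genes (PPAT, GART, PFAS, PAICS, ATIC, IMPDH1, GMPS, and ADSS under its RefSeq symbol ADSS2). CACGTG was present in 3 of these 8 windows (PAICS, PPAT and ATIC, the first 2 sharing 1 site), beside 7.4% of the windows of 27305 genes. GGGCGG was present in 7 of 8, beside 44.6%, and PAICS and PPAT share the same 3 sites. Each member's window was the one nearest its start in the count table. The 27305 genes, tested here or not, were each read at their first listed window. The CCAAT box, searched as CCAAT on either strand, was present only in GART among the 8, 3 times, beside 35.7% of all genes. The 8 windows were 57.0% to 79.3% G and C, against a mean of 57.2% over all genes. These matches describe the letters only, and binding was not measured here.

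Library totals ranged from 17122252 to 20416243 counts. Genes with a count numbered 25001 to 25506 in siC1QBP and 23395 to 23841 in siNC libraries. Mitochondrial genes held 4.2% to 4.8% of the counts in siC1QBP and 3.66% to 3.88% in siNC libraries. The part of these differences in the results was not tested. Levels are given in CPM (counts scaled to library size after adjustment by TMM factors, not to the plain total). A count of 0 allows a level of up to 3 counts, or 0.147 to 0.175 CPM by plain library total, for counting error only. C1QBP itself averaged 180.3 ± 4.94 CPM under siNC and 58.9 ± 1.20 CPM under siC1QBP (SD, n = 3 each). Biliary keratins and EPCAM were high, with 8 biliary markers summing to 8448 to 8962 CPM in siNC and 7634 to 7968 CPM in siC1QBP libraries. Keratins made up most of the sum (KRT7 3766 CPM under siNC), while SOX9 was at 58.3 and MUC1 at 8.15 CPM. In siC1QBP libraries KRT7 and KRT19 were lower and MUC1 was higher (edgeR adjusted p = 0.000214, 0.00862 and 0.00136). The other 5 did not pass. The 4 blood markers summed to at most 0.445 CPM and the 4 hepatocyte markers to at most 0.173 CPM, with CD3E, HBB and TTR at 0 in all 6 libraries. The 4 fibroblast markers summed to 8.22 to 12.6 CPM over the 6 libraries, of which LUM made up 6.70 to 11.3 CPM, and the 3 endothelial markers to 2.47 to 3.95 CPM. Their part in the results was not tested. The first siC1QBP replicate was the library least like its group (chi-square per degree of freedom 6.66 and 6.77, against 2.09 between the others), and the first siNC replicate differed less (3.67 and 3.40, against 2.13).

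Of the 10 genes, 2 were lower in siC1QBP cells, PAICS and IMPDH1, and 0 were higher (edgeR quasi-likelihood test, Benjamini-Hochberg adjusted p under 0.05 over 15530 genes). Over all tested genes 14.3% were called, 7.84% as lower and 6.47% as higher, so 2 of 10 is a small count from which nothing can be read about the group. At an unadjusted p under 0.05 the count was also 2 of 10, beside 29.0% of all tested genes. The median log2 fold change (siC1QBP over siNC) was -0.015 over the 10 genes and 0.003 over all tested genes. The 10 fold changes ran from -0.20 to 0.10.

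**Figure D1:**
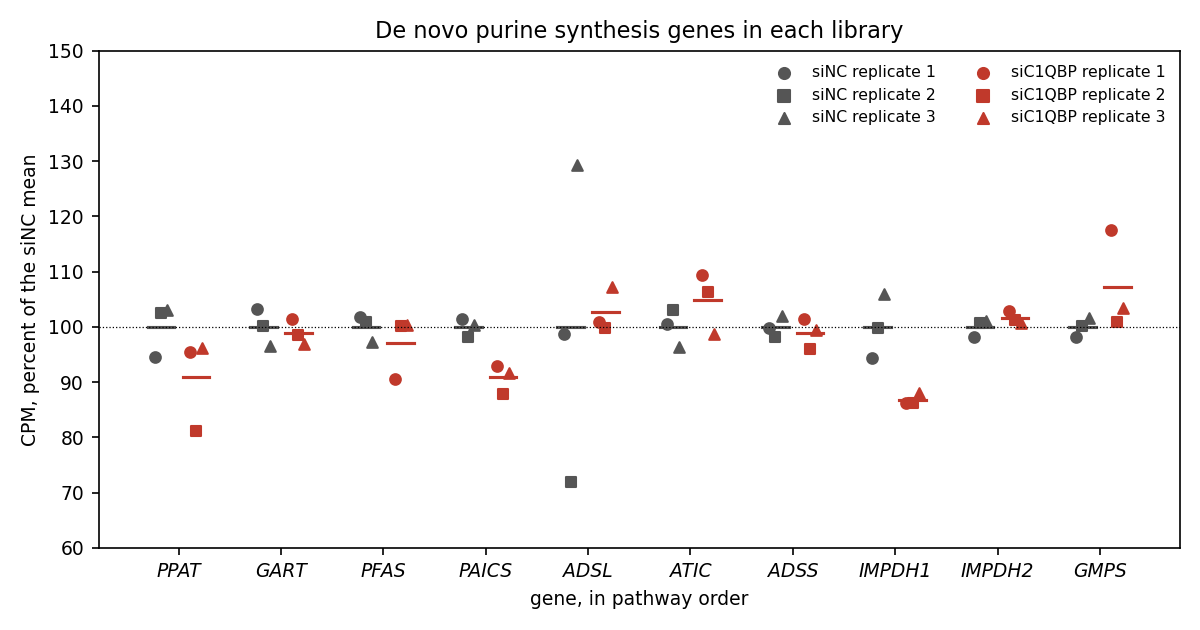
Level of each of the 10 genes in each library, as a percent of the gene's mean CPM in the siNC libraries; symbols are replicates, horizontal bars are group means (n = 3 each). PAICS and IMPDH1 are the genes whose siC1QBP and siNC libraries do not overlap, and ADSL has the widest siNC spread. Over all tested genes 32.6% do not overlap in either direction and 16.6% in this one, so nothing is read from these 2 genes about the group.

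PPAT encodes the amidotransferase that commits PRPP to purine synthesis and is the step held back by its end products. It stood at 43.2, 36.8 and 43.5 CPM in siC1QBP replicates 1, 2 and 3 and at 42.8, 46.4 and 46.6 CPM in the siNC replicates. The groups overlapped, with siC1QBP replicate 2 lowest and siNC replicate 1 below the higher siC1QBP libraries. The log2 fold change was -0.14 (SE 0.07; 95% interval -0.29 to 0.02; edgeR adjusted p = 0.228), nearly the same as that of PAICS but with a wider interval. Without siC1QBP replicate 2 it was -0.06 (adjusted p = 0.630), and without both libraries numbered 1 it was -0.21 and passed the test (adjusted p = 0.0296).

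GART (chromosome 21, 33503931 to 33543491, minus strand), which carries 3 of the early activities, was 139, 135 and 133 CPM in siC1QBP libraries, against 141, 137 and 132 CPM in siNC libraries. The log2 fold change was -0.015 (95% interval -0.11 to 0.08), an interval that spans 92.5% to 105.9% of the control level. PFAS (chromosome 17, 8247618 to 8270491, plus strand), the glutamine-using amidotransferase that follows, was 43.2, 47.8 and 47.8 CPM against 48.5, 48.1 and 46.4 CPM. Its siC1QBP replicate 1 was the lowest library and the others overlapped (log2 fold change -0.04, 95% interval -0.175 to 0.09). Neither gene passed the test (edgeR adjusted p = 0.868 and 0.699).

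PAICS joins a carboxylase and the ligase that adds aspartate to the growing ring. Its level was 221, 209 and 217.5 CPM in siC1QBP replicates 1, 2 and 3 and 241, 233 and 238 CPM in siNC replicates 1, 2 and 3. Every siC1QBP library lay below every siNC library, a property that 16.6% of all tested genes shared in this direction and 32.6% in either. The mean fell from 237 ± 4.07 to 216 ± 6.19 CPM (SD, n = 3), to 90.9% of control (95% interval 85.4% to 96.7%), a log2 fold change of -0.14 (SE 0.04; edgeR adjusted p = 0.0384). In size this fall was ordinary: 50.3% of tested genes had a smaller absolute log2 fold change, and 22.9% had a lower signed one. The call was lost when any library other than siC1QBP replicate 1 was left out, with adjusted p of 0.139 (without siC1QBP replicate 2), 0.0800 (siC1QBP replicate 3), 0.0886 (siNC replicate 1), 0.0859 (siNC replicate 2) and 0.139 (siNC replicate 3). It was also lost with library size as the only scaling (-0.11, adjusted p = 0.0787) and with upper-quartile scaling (-0.11, 0.0999).

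Fold changes in these libraries moved with gene length. When tested genes were put into 5 equal classes by summed exon length, PAICS, PPAT, GART, PFAS and ADSL fell in the second longest (median 6476 bases), where 5.19% of genes were lower and the median log2 fold change was 0.015. In the shortest class 11.4% were lower and the median was -0.04. With each library's trend on length removed, PAICS was at -0.17 (adjusted p = 0.00792) and IMPDH1, of the second shortest class, at -0.17 (adjusted p = 0.0332).

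ADSL, the lyase used both on the way to IMP and from IMP to AMP, had 104, 99 and 117 counts in siC1QBP and 103, 83 and 136 counts in siNC libraries, far below the other 9 genes. The libraries of the groups overlapped completely, and the log2 fold change of 0.04 had a 95% interval of -0.34 to 0.43, from 78.8% to 135.0% of control. Its sign turned with the siNC libraries kept, to -0.15 without siNC replicate 2 and 0.27 without siNC replicate 3. ADSL (chromosome 22, 40346500 to 40390463, plus strand) shares exons with AL022238.4, a protein-coding gene model on the same strand. In GENCODE release 29, 1306 of the 1452 coding bases of the principal ADSL transcript (89.9%) lie in exons of AL022238.4, which itself held 1 to 9 counts per library. The sources used here do not say how the authors' counting treated reads in exons of 2 genes, so the ADSL count is uncertain as a level. For the other 9 genes at most 7.8% of the principal transcript's coding bases lay in exons of another gene, that highest share being PPAT's, with a gene on the opposite strand.

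ATIC (chromosome 2, 215311817 to 215349773, plus strand), which makes the last 2 conversions to IMP, was 106, 103 and 95.7 CPM in siC1QBP libraries, against 97.6, 99.98 and 93.5 CPM in siNC libraries. The groups overlapped, and ATIC did not pass (edgeR adjusted p = 0.441; log2 fold change 0.07, 95% interval -0.04 to 0.18). ADSS (chromosome 1, 244408494 to 244452134, minus strand), the synthetase that sends IMP towards AMP, was nearly level, at 105, 99.7 and 103 CPM against 104, 102 and 106 CPM (log2 fold change -0.015, 95% interval -0.12 to 0.09). The 95% interval of PAICS, -0.228 to -0.048, overlapped those of PPAT, GART, PFAS, ADSL, ADSS, IMPDH1 and IMPDH2. It ended just below those of ATIC (from -0.045) and GMPS (from -0.017). Apart from the ratios within a library given below, a difference in fold change between genes was not tested.

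On the branch to GMP, IMPDH1 passed the test and IMPDH2 did not. IMPDH1 (chromosome 7, 128392277 to 128410252, minus strand), the form usually described as constitutive, was 72.9, 72.9 and 74.4 CPM in siC1QBP libraries, against 79.7, 84.35 and 89.5 CPM in siNC libraries. The siC1QBP libraries were tightly placed and all lay below the siNC libraries, which were more spread. Such a placement was shared by 16.6% of all tested genes. The mean fell from 84.5 ± 4.89 to 73.4 ± 0.866 CPM, to 86.9% of control (95% interval 80.2% to 94.1%), with a log2 fold change of -0.20 (SE 0.06; edgeR adjusted p = 0.0197), and 65.7% of tested genes had a smaller absolute change. Removing siC1QBP replicate 2 ended the call (adjusted p = 0.0528), as did removing siNC replicate 2 (0.0729) or siNC replicate 3 (0.127) or setting the threshold at 0.01. Pseudogenes of IMPDH1, 7 in all, held 2.1% as many counts as IMPDH1, and 7 PAICS pseudogenes 0.20% as many as PAICS.

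IMPDH2 (chromosome 3, 49024325 to 49029408, minus strand), the form associated with proliferation, was 323, 318 and 316 CPM in siC1QBP libraries, against 308, 316.5 and 317.5 CPM in siNC libraries. The groups overlapped, and the log2 fold change of 0.02 had a 95% interval of -0.06 to 0.11, or 95.85% to 107.8% of control. GMPS (chromosome 3, 155870536 to 155944026, plus strand), which aminates XMP to GMP, was 145, 125 and 128 CPM against 122, 124 and 126 CPM. Replicate 1 of siC1QBP was the high library, and its removal took the log2 fold change from 0.10 (95% interval -0.02 to 0.22; edgeR adjusted p = 0.251) to 0.03.

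Counts of 2 genes in the same library need no scaling between libraries, and 5 such or summed quantities were compared. PAICS had 5.25 counts for each PPAT count in both groups (geometric means), with log2 ratios of 2.35, 2.51 and 2.32 in siC1QBP and 2.49, 2.33 and 2.35 in siNC libraries, which overlapped fully (difference 0.0021; exact permutation p = 1, two-sided). The log2 ratio of PAICS to the sum of the other 9 genes was -2.16, -2.18 and -2.12 against -1.98, -2.05 and -2.02, lower in 3 of 3 siC1QBP libraries than in any siNC library. That of IMPDH1 to IMPDH2 was -2.15, -2.12 and -2.09 against -1.95, -1.91 and -1.83, also without overlap. These last 2 ratios were chosen after the values had been seen, and each gave the smallest p that 3 against 3 allows (two-sided exact permutation p = 0.1; 0.25 adjusted over the 5 quantities).

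**Figure D2:**
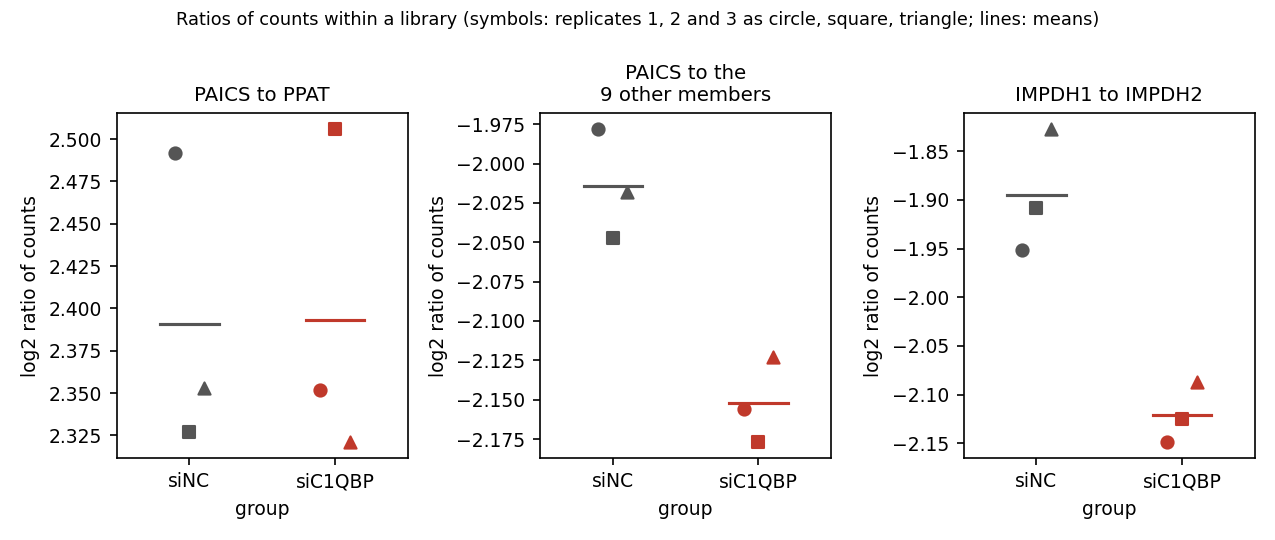
Log2 ratios of counts within each library for PAICS to PPAT, PAICS to the 9 other genes together, and IMPDH1 to IMPDH2; lines are group means (n = 3 each). The PAICS to PPAT ratios overlap fully, while the other ratios are lower in every siC1QBP library than in any siNC library; the vertical axes do not start at 0.

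The summed level of the pathway did not pass its test. The 10 genes summed to 1204, 1153 and 1165 CPM in siC1QBP replicates 1, 2 and 3 and to 1190, 1195 and 1203 CPM in siNC replicates 1, 2 and 3 (difference -21.9 CPM; exact permutation p = 0.4, two-sided; 0.667 adjusted over the 5 quantities). Replicate 1 of siC1QBP was the highest of the 6 libraries. Without PAICS the other 9 genes summed to 959 ± 8.54 CPM under siNC and 958 ± 22.1 CPM under siC1QBP (SD, n = 3). This sum without PAICS, counted among the 5 quantities, was not planned in advance. The difference in the sum of the 10 depended on the libraries and the scaling: it was -37.9 CPM without siC1QBP replicate 1, -13.2 CPM without siC1QBP replicate 2 and -1.78 CPM with library size as the only scaling.

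Levels of different genes were compared per kilobase, first over the summed exons of each gene (the authors' gene length) and then over its principal GENCODE transcript. Both scales divide the counts of the whole gene, so the second is not a level of the principal transcript alone. In siNC libraries IMPDH2 was highest on both scales, at 113 ± 1.84 and 191 ± 3.11 CPM per kb (SD, n = 3). PAICS came next, at 31.6 ± 0.541 and 71.1 ± 1.22 CPM per kb, and in siC1QBP libraries at 28.7 ± 0.827 and 64.6 ± 1.86 CPM per kb.

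ADSS, ATIC, IMPDH1 and GART filled the middle and changed places with the length used. ADSS was 28.3 ± 0.548 and 37.3 ± 0.722 CPM per kb, ATIC 24.7 ± 0.840 and 43.8 ± 1.49, IMPDH1 23.1 ± 1.34 and 29.3 ± 1.70, and GART 17.7 ± 0.582 and 40.9 ± 1.35. The siNC ranges of ATIC and IMPDH1 overlapped per kb of summed exons, and those of ATIC and GART per kb of the principal transcript. No other neighbours in either order overlapped. GMPS (13.9 ± 0.232 and 14.1 ± 0.235), PPAT (8.32 ± 0.393 and 12.3 ± 0.580) and PFAS (7.36 ± 0.177 and 8.87 ± 0.214) followed in this order on both scales. ADSL came last at 0.805 ± 0.231 and 1.31 ± 0.378 CPM per kb, with the uncertainty given above.

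**Figure D3:**
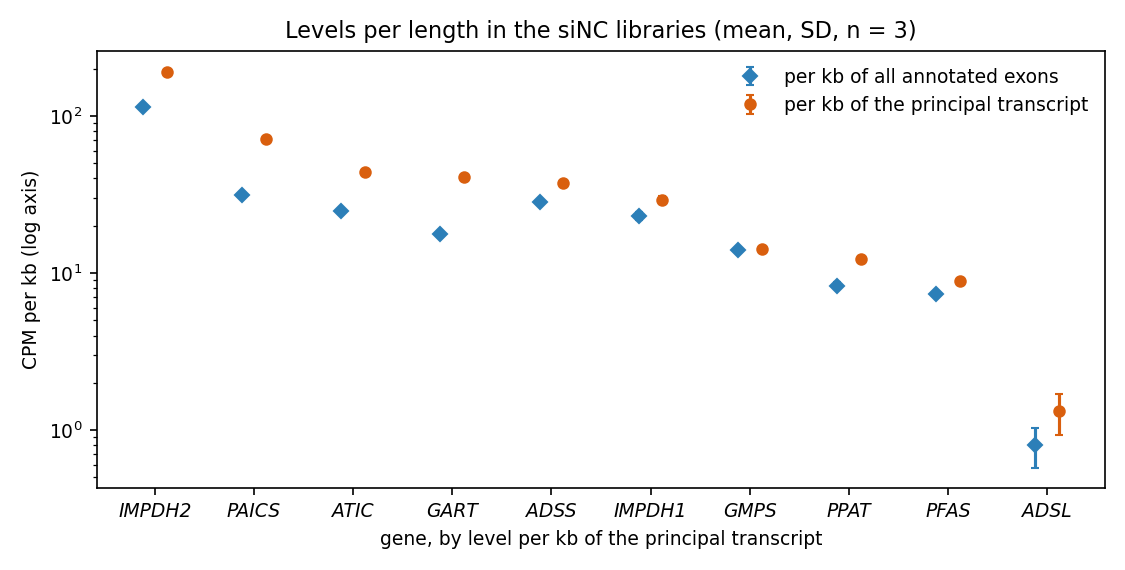
Mean level of each gene in the siNC libraries in CPM per kilobase on a log axis, over all annotated exons (diamonds) and over the principal transcript (circles), with SD (n = 3). IMPDH2 and PAICS are the 2 highest on both scales, and ADSL the lowest.

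The genes most like PAICS over the 6 libraries, by the distance between centred log2 CPM among 7888 other protein-coding genes with at least 20 CPM, were PDIA6 (distance 0.0303), HNRNPR (0.0307) and CBFB (0.0336). PDIA6, a disulfide isomerase of the endoplasmic reticulum, changed by -0.14 and the RNA-binding protein HNRNPR by -0.14 (edgeR adjusted p = 0.0281 and 0.0297). Both genes were picked for matching PAICS over these same 6 libraries. A similar fold change and similar losses of the call largely follow from that choice. Like that of PAICS, both calls were lost with library size only or upper-quartile scaling. They were also lost when any library except siC1QBP replicate 1 was left out (adjusted p up to 0.103 for PDIA6 and 0.110 for HNRNPR). The PDIA6 call was lost with the length trend removed too (0.0569). CBFB, a partner of RUNX transcription factors, stood at -0.13 and did not pass (adjusted p = 0.0994). No other member was among the nearest genes: 1401 of the 7888 were nearer to PAICS than ADSS (distance 0.155), the closest member, and 2230 were nearer than PPAT (0.187).

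The other genes named in the series title were read beside PAICS. MYC was 68.0, 78.2 and 73.4 CPM in siC1QBP libraries, against 86.2, 85.5 and 86.65 CPM in siNC libraries, below in every case (log2 fold change -0.23, SE 0.06; edgeR adjusted p = 0.0101, and 0.0502 without siNC replicate 3). PTK2, which encodes FAK, was at 138 ± 3.95 against 131.5 ± 0.661 CPM and did not pass (log2 fold change 0.07; edgeR adjusted p = 0.323).

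Precursors for the ring come from PRPP, glycine and one-carbon units on folate. Of 14 genes of this supply, 13 were tested, 1 was lower and 0 were higher, beside 7.84% and 6.47% of all tested genes. At an unadjusted p under 0.05 (edgeR) the count was 3, beside 29.0% of all tested genes. The median log2 fold change was 0.012. SHMT1, the cytosolic serine hydroxymethyltransferase, fell from 50.4 ± 0.807 to 44.3 ± 1.26 CPM (log2 fold change -0.19, SE 0.06; edgeR adjusted p = 0.0418), a call kept in 7 of 17 alternative fits. It was lost with DESeq2 (0.0832), with library size only (0.0754) or upper-quartile scaling (0.0852), with either other filter on low counts (0.0506 and 0.0507), and when any library except siC1QBP replicate 1 was left out (up to 0.126). The untested gene was PSAT1, an enzyme of serine synthesis, with 0 or 1 count in each library and so under the 3-count limit throughout. The PRPP synthetase PRPS2 was at 77.5 ± 3.62 against 86.0 ± 0.792 CPM and PHGDH, the entry to serine synthesis, at 96.9 ± 4.04 against 87.9 ± 4.50 CPM, and neither passed (edgeR adjusted p = 0.0641 and 0.0951). PRPS2 passed without siC1QBP replicate 1 (0.0104), without both libraries numbered 1 (0.00585) and with the replicate number as a block (0.0278). PHGDH passed with library size only (0.0493), upper-quartile scaling (0.0473), the filter at 10 CPM (0.0465) or the replicate number as a block (0.0407).

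A further list held enzymes that interconvert purine nucleotides or phosphorylate them. Of 12 genes reported here 11 were tested, 4 were lower and 1 was higher, beside 7.84% and 6.47% of all tested genes. At an unadjusted p under 0.05 (edgeR) the count was 8 of 11, beside 29.0%. The list was chosen with earlier results of these data known, so nothing is read from these counts about it. Log2 fold changes ran from -0.44 to 0.33, 5 of 11 of them negative. Their median was 0.132, which 1 gene more or less would move widely. AMPD1, the muscle AMP deaminase, was the untested gene with 2 counts in all. GUK1, which phosphorylates GMP, fell from 234 ± 18.9 to 190.5 ± 11.9 CPM (log2 fold change -0.29, SE 0.06; edgeR adjusted p = 0.00295). The nucleoside diphosphate kinase NME1 fell from 72.1 ± 2.53 to 58.6 ± 4.26 CPM (-0.30, SE 0.06; adjusted p = 0.00353). Both kept an adjusted p under 0.05 in each of the 17 alternative fits run.

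AK4, a mitochondrial kinase of nucleotides, fell as well (-0.34, SE 0.08; edgeR adjusted p = 0.00791). Its call was lost without siNC replicate 3 (0.0623), whose 62.0 CPM stood above 51.4 and 49.1 CPM in the other siNC libraries. NME2, a near-identical neighbour of NME1 whose counts may be split with it, was at -0.44 (adjusted p = 0.0491), and only 6 of 16 alternative fits called it, none of those without siC1QBP replicate 1 or 2 or without any 1 siNC library (up to 0.129). AMPD3, an AMP deaminase, rose from 35.8 ± 1.62 to 41.7 ± 1.59 CPM (0.22, SE 0.07; adjusted p = 0.0326). DESeq2 did not call it (0.0596), nor did edgeR over all genes with at least 1 count (0.0674) or when replicate 2 or 3 of either group was left out (up to 0.152).

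Salvage enzymes remake nucleotides from free bases and nucleosides. Of 5 such genes 2 were lower, HPRT1 (from 124 ± 2.85 to 110 ± 1.29 CPM; log2 fold change -0.18; edgeR adjusted p = 0.0142) and APRT (from 103 ± 11.6 to 85.3 ± 3.22 CPM; -0.27; adjusted p = 0.0134), and 0 were higher. Over all tested genes 7.84% were lower and 6.47% higher. At an unadjusted p under 0.05 (edgeR) the count was 3 of 5, beside 29.0%. Nothing can be read about the list from counts this small. HPRT1 lost its call without siC1QBP replicate 3 (0.0542) or siNC replicate 3 (0.0915) and with the length trend removed (-0.10, 0.179), and APRT without siNC replicate 2 (0.106) or 3 (0.0781).

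**Figure D4:**
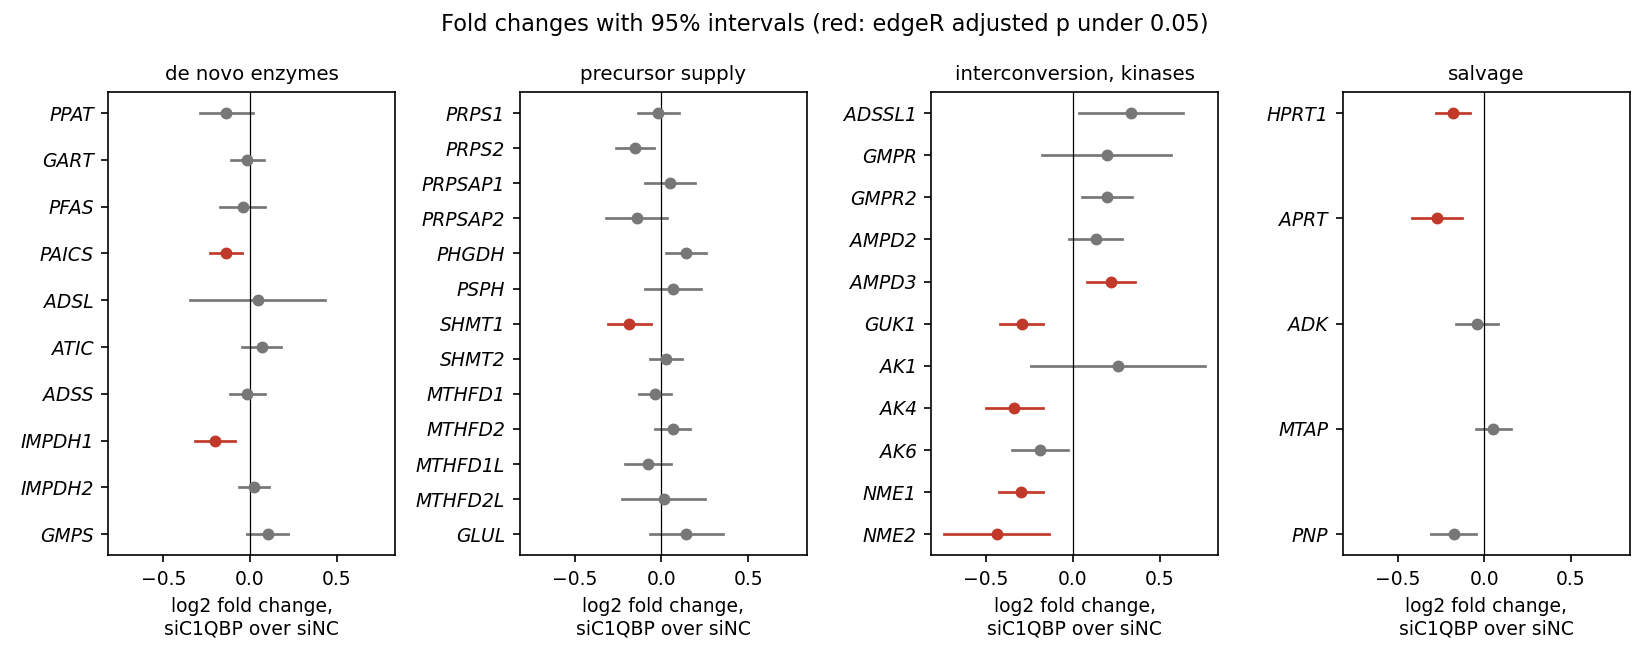
Log2 fold changes (siC1QBP over siNC) with 95% intervals for the tested genes of the 10 de novo enzymes, 13 precursor supply genes, 11 interconversion and kinase genes and 5 salvage genes; red marks an edgeR adjusted p under 0.05. Calls are 2, 1, 5 and 2 in these panels, beside 14.3% of all tested genes, and the intervals of AK1, ADSL and GMPR are the widest.

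**Figure D5:**
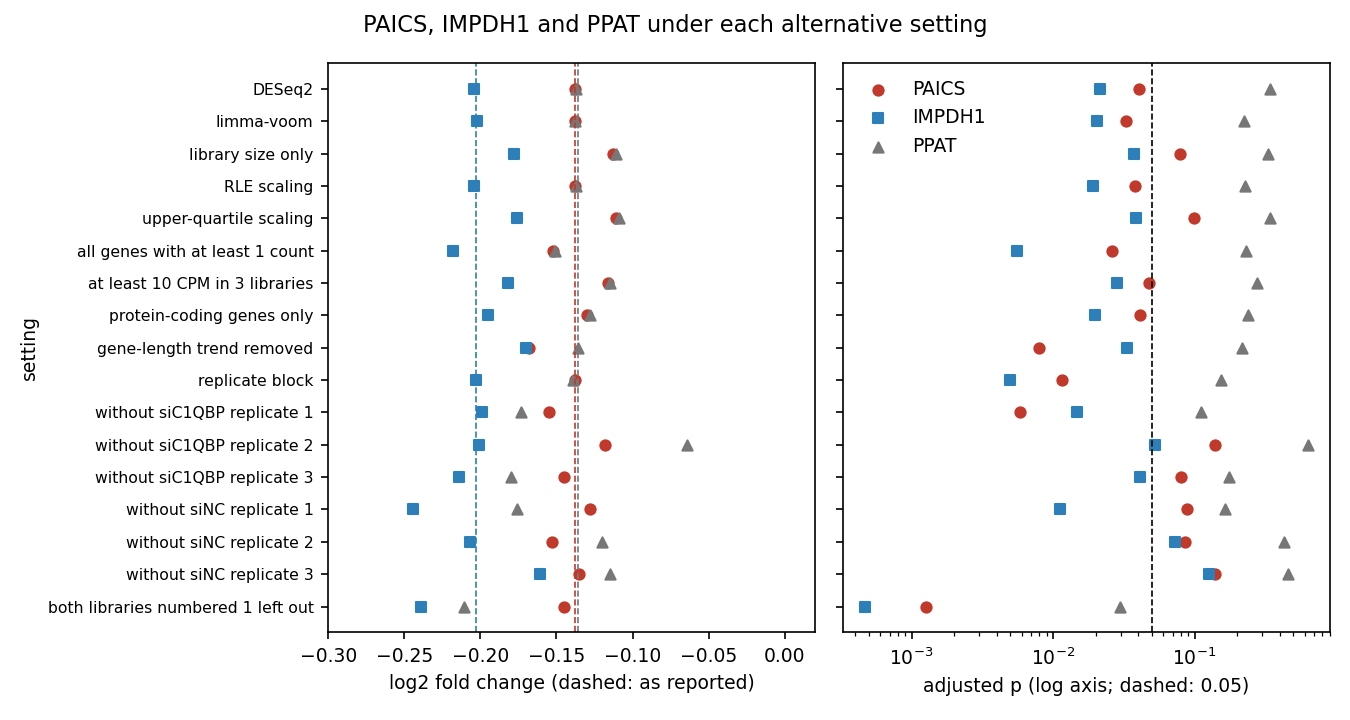
Log2 fold change (left) and adjusted p (right, log axis) of PAICS, IMPDH1 and PPAT under each of 17 alternative fits; dashed lines mark the reported fold changes and an adjusted p of 0.05. All values are negative, PAICS passes in 10 fits, IMPDH1 in 14 and PPAT in 1.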

How the data were processed

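RNA sequencing gave 6 libraries of HuCCT1 cells, 3 siC1QBP and 3 siNC, made with a strand-marking kit per the labels' protocols. The authors deposited raw counts per gene with no normalization, and the gene length of their annotation. That length was used here for levels per kilobase, the classes by length and the trend on length, and not in the reported fit. The build is hg38, per the submitters' processing notes. The sources used here do not name the aligner, the counting program or its strand setting. All 58735 gene IDs and positions matched GENCODE release 29.

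Counts were tested with edgeR 4.0.16 (quasi-likelihood, TMM, filterByExpr, treatment only; R 4.3.3), with Benjamini-Hochberg adjustment over 15530 genes. Intervals of fold changes use the t quantile of the fit. DESeq2 1.42.0, limma-voom 3.58.1, other scalings and filters, removal of a loess trend on gene length, a replicate block and each library left out were alternatives. Leaving out both libraries numbered 1 was added after seeing the data. Lone values per library were compared by exact permutation over libraries. The script was tested on simulated data. Titles paired each column with its sample. The count table held 0 other columns of per-sample values.

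The 10 members and all gene lists were chosen with earlier results of these data known. Named genes were all members, called genes of the related lists, and the 3 genes nearest to PAICS. PRPS2, PHGDH, PSAT1, AMPD1 and PTK2 were named beyond that rule, PTK2 as a gene of the title. Promoter sequences came from RefSeq (GRCh38.p14). A gene of the interconversion list is not reported here, and the list's counts leave it out.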

Additional observations from a re-analysis of the deposited data

How the results depend on the processing

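Over 17 alternative fits the log2 fold change of PAICS stayed negative, between -0.17 and -0.11. It no longer passed with library size only (-0.11) or upper-quartile scaling (-0.11). Leaving out 1 library gave -0.16 to -0.12. Of those fits PAICS passed only without siC1QBP replicate 1 (edgeR adjusted p = 0.00588, against 0.0800 to 0.139 in the others). The count of members lower, 2, became 1 with library size only, 1 with upper-quartile scaling and 0 at an adjusted p under 0.01, and 0 to 2 with 1 library left out. The 0 members higher stayed 0 in all of these fits, DESeq2 and limma-voom included. All genes called, 2222 (1217 lower, 1005 higher), became 1057 at an adjusted p under 0.01, and 1090 to 2607 with 1 library left out, the lowest without siNC replicate 2 and 1193 without siNC replicate 3. Of the calls 54.8% were lower, against 42.0% with library size only and 42.5% with upper-quartile scaling. The summed level of the members differed by -1.78 CPM with library size only, in place of -21.9. The causes were not tested. Over the alternatives, refitted for 26 named genes, none that passed in the reported fit changed sign; other called genes were only counted.

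With the replicate number as a block, PAICS was at -0.14 (adjusted p = 0.0115), 2 members were lower and 3092 genes were called. The numbers were not taken as pairs, because the labels do not say that they mark a shared culture or day. Deviations of same-numbered libraries correlated at 0.192, 0.109 and 0.0314 over 11089 genes. Those of differently numbered libraries ran from -0.148 to 0.0880, the highest for replicate 3 of siC1QBP with replicate 2 of siNC. Replicates 1 and 2 thus matched their own number best and replicate 3 did not, which leaves pairing undecided. With 3 libraries a group, 95% intervals of the log2 fold change reached from -0.06 to 0.11 for IMPDH2, the narrowest member, and from -0.34 to 0.43 for ADSL, the widest.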
